A study of Mus musculus with 9 samples.

Results

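The 50 genes described here encode the machinery of DNA replication, the mitotic apparatus, and the cyclins, cyclin-dependent kinases (CDKs), CDK inhibitors and transcription factors that drive cells through the cycle. They were taken by gene symbol from a named list, with no cut on their values, although the list was chosen with earlier results of these data known. All 50 had a row among the 26157 genes of the deposited table. By role they form 16 replication genes, 17 mitotic genes, 13 cyclins, CDKs and CDC25 phosphatases, 2 CDK inhibitors and 2 transcription factors. Messenger RNA was sequenced from J774A.1, an established mouse macrophage cell line that divides continuously in culture, in 3 groups of 3 libraries. The Q11 group received Q11 at the same time as interleukin-4 (IL-4) and interleukin-13 (IL-13). The series title calls Q11 a CYP2E1 inhibitor, CYP2E1 being an enzyme of the cytochrome P450 family. The M2 group received IL-4 and IL-13 at 10 ng/mL, cytokines that drive the alternative (M2) state of macrophages, and the Ctrl group was cultured with neither cytokines nor Q11. No genetic change is named for any group, and all groups are of this same line. A line that divides in culture is limited as a model of tissue macrophages that mostly rest. Whether the groups divided at the same rate was not tested. The sources used here give neither the dose of Q11, nor the cytokine dose of the Q11 group, nor how long cells were treated.

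Before replication starts, Cdc6 and Cdt1 load the Mcm2 to Mcm7 helicase onto DNA. Cdc45 and the GINS complex then activate the helicase, and during synthesis Pcna, the sliding clamp, holds the polymerases in place. D-type cyclins with Cdk4 act on the retinoblastoma protein and so release the E2F factors, which switch on replication genes, whereas complexes that hold B-Myb and Foxm1 switch on mitotic genes. In mitosis the spindle checkpoint holds Cdc20, the activator of the anaphase-promoting complex (APC/C), until chromosomes are attached.

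Values are TPM, a transcript level corrected for gene length and for library total. Whole reads were recovered from the TPM and exon lengths, giving 15815847 to 17095787 reads in 8 libraries and 32193523 reads in Q11 replicate 2. Q11 replicate 2 held fewer reads than Q11 replicate 3 in 11 of 19252 genes, against 1929 to 2413 genes in the same count with each of the other 7 libraries. The reads of replicate 3 therefore appear to be contained in replicate 2, and these libraries are not independent. Results were also computed with the reads of replicate 3 subtracted from replicate 2, which left 15336276 reads, a form called "shared reads separated" here. The labels do not say whether libraries came from separate cultures, so p-values measure only the spread between these libraries. The 10 summed macrophage markers stood at 8144 to 8239.6 TPM in Q11 cells, 7789.8 to 8401 TPM in M2 cells and 11807 to 12233 TPM in Ctrl cells. This sum was lower in both cytokine groups, mostly through Lyz2 and Cd14. The other 8 summed to 3394 to 3534 TPM in Q11 cells, 3529 to 3654 TPM in M2 cells and 3555 to 3669.8 TPM in Ctrl cells. Most of that was Cd68, at a mean of 2546 TPM, so the sum of 8 says little about the rest. In limma 3 of the 10 fell in Q11 against Ctrl (Lyz2, Cd14 and Ptprc) and 4 of the 10 in M2 against Ctrl (these and Itgam). Ptprc had log2 changes of -0.28 (adjusted p = 6.25e-04) in Q11 and -0.35 (adjusted p = 1.58e-04) in M2 against Ctrl. Itgam had -0.42 (adjusted p = 0.0104) in M2 against Ctrl. The part of these falls in the results given here was not tested. The summed IL-4 and IL-13 response markers stood at 1223 to 1284 TPM in Q11 cells, 1211 to 1421 TPM in M2 cells and 224 to 230.1 TPM in Ctrl cells. Most of this was Mgl2, with means of 957, 1004 and 132 TPM, and Clec10a and Mrc1 rose too. Arg1 averaged 2.17, 3.56 and 0.302 TPM, and in limma it passed in M2 (adjusted p = 0.0228) but not in Q11 against Ctrl (0.0815). Retnla was at 0 in 8 libraries and Chil3 reached at most 0.981 TPM, and neither was tested. Summed markers of fibroblasts, epithelial cells, T cells, B cells and endothelial cells each stayed at or below 2.92 TPM in every library, and Epcam, Krt8, Krt18, Dcn, Cd3e and Cd3g were not analysed here.

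Replication and mitotic genes are known for different promoter elements, so promoters of genes the results turn on are printed here with abundant genes of each class. RefSeq promoters (250 bases before to 50 after a start, GRCm38.p6) matched 38 of the 50 genes, with 41 promoters. Capitals mark matches on either strand, which can share bases. The E2F letters were TTCCCGC, alternatively spelt TTCGCGC, alternatively spelt TTGCCGC, alternatively spelt TTGGCGC. The cell cycle genes homology region (CHR), which the mitotic gene complexes bind, was read as TTTGAA, alternatively spelt TTCGAA. The CCAAT box was read as CCAAT, which appears as ATTGG on the other strand.

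The first 3 are replication genes, the helicase subunit Mcm3, the clamp Pcna and the ribonucleotide reductase subunit Rrm2.
Mcm3 (GRCm38.p6, chr1:20820263-20820562, minus strand): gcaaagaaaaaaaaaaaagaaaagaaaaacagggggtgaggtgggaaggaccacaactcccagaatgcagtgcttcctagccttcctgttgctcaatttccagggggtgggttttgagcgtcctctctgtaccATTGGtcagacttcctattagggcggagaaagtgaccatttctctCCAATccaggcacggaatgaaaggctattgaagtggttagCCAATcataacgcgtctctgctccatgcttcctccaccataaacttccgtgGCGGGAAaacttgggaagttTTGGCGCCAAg
Pcna (GRCm38.p6, chr2:132253131-132253430, minus strand): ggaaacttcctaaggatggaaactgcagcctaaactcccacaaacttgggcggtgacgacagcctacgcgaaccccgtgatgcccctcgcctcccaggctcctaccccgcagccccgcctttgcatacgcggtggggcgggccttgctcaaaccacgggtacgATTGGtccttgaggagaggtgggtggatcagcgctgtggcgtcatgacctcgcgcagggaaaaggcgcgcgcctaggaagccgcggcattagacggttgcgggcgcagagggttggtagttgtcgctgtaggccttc
Rrm2 (GRCm38.p6, chr12:24708004-24708303, plus strand): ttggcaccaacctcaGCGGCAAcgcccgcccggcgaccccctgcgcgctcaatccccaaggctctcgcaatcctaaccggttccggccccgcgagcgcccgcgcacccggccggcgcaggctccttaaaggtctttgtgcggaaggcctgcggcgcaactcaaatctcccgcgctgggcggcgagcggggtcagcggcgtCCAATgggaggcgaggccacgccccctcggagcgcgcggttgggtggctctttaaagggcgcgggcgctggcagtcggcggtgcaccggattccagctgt

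The next 4 are mitotic genes, Cdc20, the spindle kinase Aurka, the DNA topoisomerase Top2a and the proliferation marker Mki67, followed by the D-type cyclin Ccnd3.
Cdc20 (GRCm38.p6, chr4:118437294-118437593, minus strand): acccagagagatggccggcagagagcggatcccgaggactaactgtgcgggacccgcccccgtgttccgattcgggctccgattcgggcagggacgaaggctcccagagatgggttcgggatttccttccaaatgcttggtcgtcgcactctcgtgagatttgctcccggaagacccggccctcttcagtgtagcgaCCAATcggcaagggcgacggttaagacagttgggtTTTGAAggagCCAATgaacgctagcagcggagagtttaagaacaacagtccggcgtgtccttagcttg
Aurka (GRCm38.p6, chr2:172370521-172370820, minus strand): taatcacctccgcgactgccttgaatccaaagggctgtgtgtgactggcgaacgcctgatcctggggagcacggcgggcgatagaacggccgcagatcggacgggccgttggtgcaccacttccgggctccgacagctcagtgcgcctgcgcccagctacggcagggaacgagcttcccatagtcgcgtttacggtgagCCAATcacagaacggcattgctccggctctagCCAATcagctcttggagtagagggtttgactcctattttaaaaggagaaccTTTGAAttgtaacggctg
Top2a (GRCm38.p6, chr11:99024140-99024439, minus strand): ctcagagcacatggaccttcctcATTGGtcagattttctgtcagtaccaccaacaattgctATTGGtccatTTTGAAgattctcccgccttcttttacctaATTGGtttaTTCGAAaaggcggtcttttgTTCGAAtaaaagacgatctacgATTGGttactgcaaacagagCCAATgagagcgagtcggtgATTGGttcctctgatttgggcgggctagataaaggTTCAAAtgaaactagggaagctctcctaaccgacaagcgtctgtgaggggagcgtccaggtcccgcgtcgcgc
Mki67 (GRCm38.p6, chr7:135716330-135716629, minus strand): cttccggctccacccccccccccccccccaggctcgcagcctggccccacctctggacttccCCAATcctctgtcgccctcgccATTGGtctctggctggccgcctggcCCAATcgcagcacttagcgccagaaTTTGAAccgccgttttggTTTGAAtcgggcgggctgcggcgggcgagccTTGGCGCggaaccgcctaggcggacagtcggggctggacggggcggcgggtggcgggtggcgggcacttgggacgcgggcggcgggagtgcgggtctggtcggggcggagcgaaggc
Ccnd3 (GRCm38.p6, chr17:47504801-47505100, plus strand): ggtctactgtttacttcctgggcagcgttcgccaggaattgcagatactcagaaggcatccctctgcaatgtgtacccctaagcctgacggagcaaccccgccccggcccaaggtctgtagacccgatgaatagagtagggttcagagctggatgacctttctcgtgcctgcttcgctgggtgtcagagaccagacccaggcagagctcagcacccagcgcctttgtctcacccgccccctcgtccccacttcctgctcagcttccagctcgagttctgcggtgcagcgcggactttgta

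E2F letters were in 10 of 14 replication promoters (71.4%), 1 of 14 mitotic promoters (7.14%) and 3 of 9 promoters of cyclins, CDKs and CDC25 genes (33.3%), against 9.57% of all 32851 promoters. CHR letters ran the other way, with 3 of 14 replication promoters (21.4%), 11 of 14 mitotic promoters (78.6%), 3 of 9 cyclin, CDK and CDC25 promoters (33.3%) and 19.2% of all promoters. CCAAT was in 11 of 14 replication promoters (78.6%), 12 of 14 mitotic promoters (85.7%), 6 of 9 cyclin, CDK and CDC25 promoters (66.7%) and 37.4% of all promoters. CHR and CCAAT stood together in 11 of 14 mitotic promoters, 3 of 14 replication promoters and 7.52% of all promoters. Counted from 1 at the start, with -1 just before it, the CHR letters of the Cdc20 promoter begin at -18, between CCAAT boxes that begin at -53 and -8. In the Aurka promoter they begin at 33, after CCAAT boxes at -51 and -19. The Pcna window held a CCAAT match and no E2F match, and its RefSeq start lies 134 bases from the GENCODE gene start, so the window is not anchored to that start. The printed Ccnd3 window, at the GENCODE gene start, held none of these letters, and its other RefSeq promoter (chr17:47593217-47593516), counted here too, held a CCAAT match at -108. Neither says anything about the factors that bind elsewhere. The genes with no matched promoter were Mcm4, Gins2, Exo1, Aurkb, Kif20a, Tpx2, Ccnd1, Ccnd2, Ccne2, Ccna2, Cdc25c and Foxm1. A match is a description of letters and was tested against no expression value.

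The cell cycle genes were abundant in every group. Over the 9 libraries, 49 of the 50 genes averaged 10 TPM or more. An average of 100 TPM or more was reached by 27 of them (54%), against 13.4% of the 14207 genes tested. Summed, the 50 genes made up 0.684 to 0.689% of all TPM in Q11 cells, 0.684 to 0.697% in M2 cells and 0.674 to 0.689% in Ctrl cells, ranges that overlap. The order of mean levels ran from Pcna at 715 TPM, through Mki67 at 332, Rrm2 at 331, Mcm3 at 308 and Mcm5 at 304 TPM, to Exo1 at 20.2, Cdc25c at 13.7 and Ccnd2 at 1.03 TPM. Of the 49 pairs of neighbours in that order, 7 did not overlap over their 9 libraries, Pcna and Mki67 among them, and the rest overlapped, as did Mki67 and Rrm2. The 9 libraries differed little for most of these genes. A gene's highest library stood at a median of 1.14 times its lowest, and under 1.3 times for 45 of 50 genes. The largest ratio was that of Ccnd2, at 3.87 times, and the next was 1.40. Over the 8605 tested genes averaging 10 TPM or more the same median was 1.21.

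**Figure D1:**
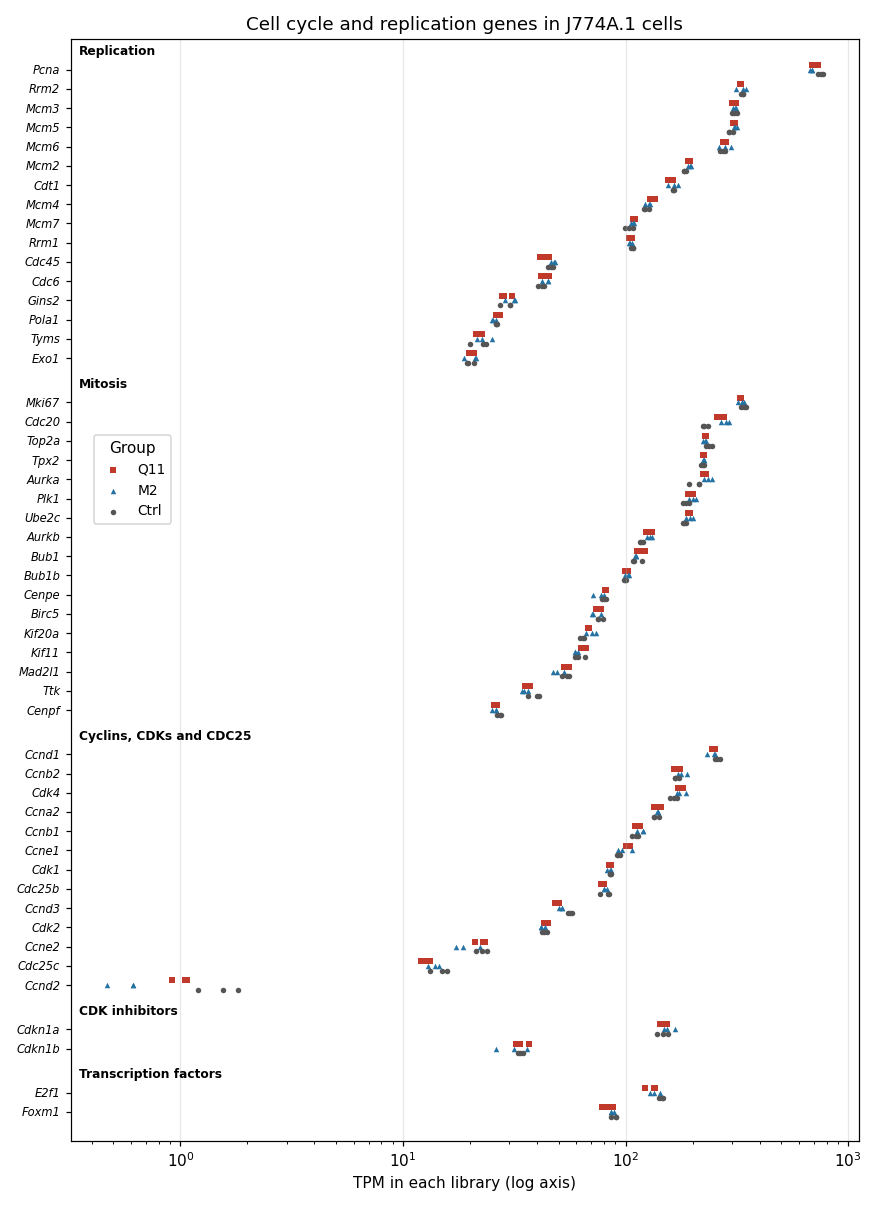
TPM of each of the 50 genes in each of the 9 libraries on a log axis, grouped by role and ordered by mean level, with Q11 as squares, M2 as triangles and Ctrl as circles (3 libraries each). The 3 groups lie almost on top of each other for most genes, while Ccnd2, at a mean of 1.03 TPM, spreads most.

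Against Ctrl cells, M2 cells had 3 of the 50 genes higher (Cdc20, Aurka and Aurkb, all mitotic) and 3 lower (Pcna, Ccnd3 and Ccnd2) past an adjusted p of 0.05 in limma on log2(TPM + 1), the scale of every log2 change given here unless limma-voom is named. That is 12% of the 50 genes, against 12.6% of all genes tested, of which 6.88% rose and 5.75% fell. Among tested genes averaging 10 TPM or more, as 49 of the 50 do, 18.4% were called. The share called was thus near that of all genes and below that of genes averaging 10 TPM or more. That set was not matched to the 50 genes in level. The groups did not overlap for 14 of 50 genes, against 28.4% of all genes and 36.0% of those averaging 10 TPM or more. Q11 cells differed from Ctrl cells in 2 of the 50 genes, with Cdc20 higher and Ccnd3 lower. Of all genes 10.7% were called there (5.19% rose and 5.53% fell), and 15.3% of those averaging 10 TPM or more. Q11 and Ctrl cells did not overlap for 19 of 50 genes, against 32.1% of all genes and 39.5% of those averaging 10 TPM or more. With shared reads separated that overlap count was 16 of 50 genes, against 26.7% of all genes. At an unadjusted p under 0.05 there were 15 of 50 genes in M2 against Ctrl and 16 of 50 in Q11 against Ctrl. The shares were 26.1% and 23.9% over all genes, and 34.9% and 31.8% over those averaging 10 TPM or more. These comparisons share the Ctrl libraries, so their likeness is not a second piece of evidence. The median log2 change over the 50 genes was 0.0046 in M2 against Ctrl and 0.012 in Q11 against Ctrl, beside -0.0026 and 0.0035 over all genes tested. In bulk RNA, fewer cells in a phase and less RNA per cell cannot be told apart.

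The count of 6 in M2 against Ctrl was 2 with shared reads separated (Cdc20 and Aurka, against 9.22% of all genes), and 1 without Ctrl replicate 1, 2 without Ctrl replicate 3, 3 without M2 replicate 1, 2 without M2 replicate 3, 2 without Q11 replicate 2 and 3 without Q11 replicate 3. In Q11 against Ctrl, Cdc20 and Ccnd3 passed again with shared reads separated, against 7.89% of all genes.

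**Figure D2:**
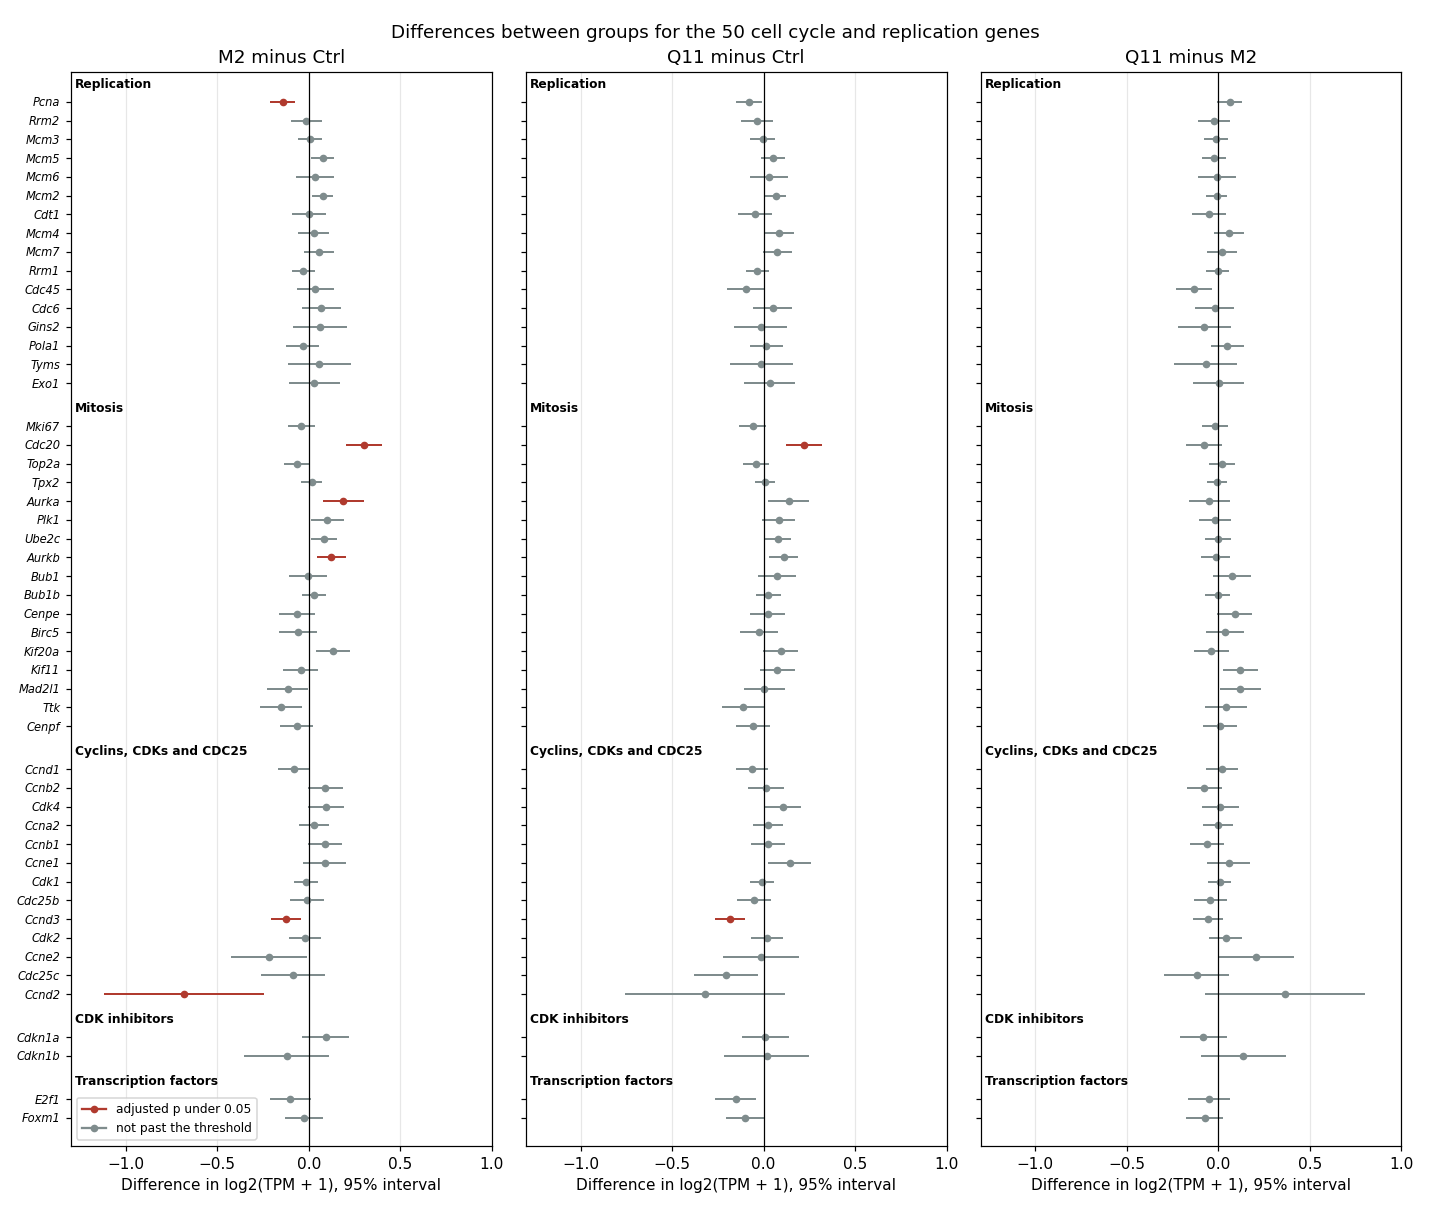
Difference in log2(TPM + 1) for each of the 50 genes, with its 95% interval, for M2 minus Ctrl (left), Q11 minus Ctrl (middle) and Q11 minus M2 (right), with genes past an adjusted p of 0.05 in red (3 libraries per group). Most intervals span or lie close to 0, Cdc20 is the farthest to the right in the left and middle panels, and no gene is red in the right panel.

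Replication genes stayed close to their Ctrl level, and Pcna alone of the 16 passed the test in M2 against Ctrl. Pcna (ENSMUSG00000027342, chromosome 2, 132249162 to 132253314 on the minus strand) had 714, 691 and 731 TPM in Q11 cells, 687, 674 and 684 TPM in M2 cells and 768, 756 and 733 TPM in Ctrl cells. The 3 groups did not overlap, with all Q11 libraries between those of M2 and Ctrl cells, but with shared reads separated Q11 replicate 2 had 653 TPM, below every M2 library. Pcna fell by 0.14 on the log2 scale in M2 cells (95% interval of the change -0.21 to -0.078, adjusted p = 0.0124), to 0.906 times the Ctrl level. In Q11 cells its log2 change was -0.080 (95% interval -0.14 to -0.017, adjusted p = 0.115) against Ctrl and 0.062 (95% interval -0.0022 to 0.13, adjusted p = 0.455) against M2. The M2 call was lost with shared reads separated (adjusted p = 0.0661), with no mean-variance trend (0.0531) and without Ctrl replicate 1 (0.0506).

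The 6 helicase subunits, Mcm2 to Mcm7, gave 0 calls in limma and in limma-voom in each comparison. An unadjusted p under 0.05 was met by 2 of 6 in M2 against Ctrl (26.1% of all genes), 3 of 6 in Q11 against Ctrl (23.9%) and 0 of 6 in Q11 against M2 (11.4%). Summed, the 6 subunits stood at 1333, 1322 and 1317 TPM in Q11 cells, 1315, 1314 and 1354 TPM in M2 cells and 1290.3, 1307 and 1262 TPM in Ctrl cells, with all cytokine libraries above all Ctrl libraries. Although the subunits work as a hexamer, their levels differed within a library, with the highest at 2.76 to 2.905 times the lowest in Q11 cells, 2.84 to 3.01 times in M2 cells and 2.87 to 3.06 times in Ctrl cells. Mcm3 (308 TPM), Mcm5 (304) and Mcm6 (277) were the high subunits and Mcm2 (190.2), Mcm4 (127) and Mcm7 (106) the low ones. Mcm5 had 312, 304 and 303 TPM in Q11 cells, 317, 305 and 311 TPM in M2 cells and 292, 302 and 291 TPM in Ctrl cells. The log2 change was 0.076 (95% interval 0.017 to 0.13, adjusted p = 0.0964) in M2 against Ctrl. Mcm4 had 135, 129.8 and 128 TPM in Q11 cells, 122, 129 and 127 TPM in M2 cells and 128, 121 and 123 TPM in Ctrl cells. On the log2 scale the change was 0.084 (95% interval 0.0071 to 0.16, adjusted p = 0.1696) in Q11 against Ctrl, with all Q11 libraries above all Ctrl libraries and the M2 libraries overlapping both.

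Cdc45, which activates the helicase, had 45.1, 42.8 and 41.05 TPM in Q11 cells, 47.9, 47.6 and 46.2 TPM in M2 cells and 46.2, 47.2 and 44.7 TPM in Ctrl cells. The Q11 libraries lay below the M2 libraries and overlapped the Ctrl libraries. Its log2 change was -0.13 (95% interval -0.23 to -0.040, adjusted p = 0.351) in Q11 against M2, the smallest adjusted p of the 50 genes in that comparison, and -0.10 (95% interval -0.19 to -0.0035, adjusted p = 0.193) in Q11 against Ctrl. Gins2, a subunit of the GINS complex, had 28.4, 30.9 and 27.8 TPM in Q11 cells, 28.7, 31.5 and 31.7 TPM in M2 cells and 30.3, 30.3 and 27.4 TPM in Ctrl cells. The groups overlap, and 67.3% of its exon bases lie over Gse1 on the opposite strand, whose reads cannot be told apart from those of Gins2 without strand. Rrm2, the small subunit of ribonucleotide reductase, which makes deoxynucleotides, had 325, 328 and 325 TPM in Q11 cells, 312, 337 and 346 TPM in M2 cells and 337, 331 and 335 TPM in Ctrl cells. Its change on that scale was -0.013 (95% interval -0.094 to 0.068, adjusted p = 0.867) in M2 against Ctrl. The loading factors Cdt1 (162 TPM) and Cdc6 (43.02), the reductase subunit Rrm1 (106), thymidylate synthase Tyms (22.4), the polymerase subunit Pola1 (26.1) and the exonuclease Exo1 (20.2) had log2 changes between -0.069 and 0.069 over the 3 comparisons. In Q11 against Ctrl 0 of 16 replication genes passed in limma and 0 of 16 in limma-voom on the recovered reads. In limma 5 of 16 were at an unadjusted p under 0.05, against 23.9% of all genes. The median log2 change of the 16 genes was 0.034 in M2 against Ctrl and 0.0051 in Q11 against Ctrl, and the Q11 value was 0.037 with shared reads separated.

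Cdc20 rose in both cytokine groups, with the smallest adjusted p of the 50 genes in M2 against Ctrl, and the Aurora kinase genes rose in M2 cells. Cdc20 (ENSMUSG00000006398, chromosome 4, 118432901 to 118437352 on the minus strand) activates the APC/C, the ubiquitin ligase that triggers anaphase. It had 277, 257 and 259.7 TPM in Q11 cells, 267, 281 and 292 TPM in M2 cells and 233, 225 and 223 TPM in Ctrl cells. All 6 cytokine libraries lay above all 3 Ctrl libraries, while the Q11 and M2 libraries overlapped. Cdc20 rose by 0.30 (95% interval 0.21 to 0.39, adjusted p = 0.00197) on the log2 scale in M2 against Ctrl, 1.23-fold, and by 0.22 (95% interval 0.13 to 0.31, adjusted p = 0.0107) in Q11 against Ctrl, 1.17-fold. The change in Q11 against M2 was -0.081 (95% interval -0.17 to 0.013, adjusted p = 0.495). Both calls held in all 19 alternative settings listed in the methods, with adjusted p up to 0.0115 in M2 against Ctrl and 0.0401 in Q11 against Ctrl. As a share of the summed mitotic TPM, Cdc20 took 11.4, 10.7 and 10.8% in Q11 cells, 11.1, 11.6 and 11.96% in M2 cells and 9.81, 9.72 and 9.67% in Ctrl cells. An opposite-strand gene, Elovl1, covers 2.84% of its exon bases.

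Aurka (ENSMUSG00000027496, chromosome 2, 172356190 to 172370535 on the minus strand), a kinase of spindle poles, had 224, 227 and 229.8 TPM in Q11 cells, 236, 225 and 245 TPM in M2 cells and 213, 214 and 192 TPM in Ctrl cells. It rose by 0.19 (95% interval 0.082 to 0.29, adjusted p = 0.0321) in M2 against Ctrl, and its change in Q11 against Ctrl was 0.14 (95% interval 0.031 to 0.24, adjusted p = 0.106). Ctrl replicate 3 lay below the other Ctrl libraries, and the M2 and Ctrl groups did not overlap. The M2 call was lost without Q11 replicate 2 or 3, M2 replicate 1 or 3 or Ctrl replicate 1 or 3 (adjusted p = 0.0509 to 0.0924), and 9 of 19 alternatives called it, while the Q11 change passed in limma-voom on recovered reads (0.0266). Aurkb (ENSMUSG00000020897, chromosome 11, 69045647 to 69051664 on the plus strand), the kinase of the chromosomal passenger complex, had 131, 127 and 124 TPM in Q11 cells, 124, 129 and 132 TPM in M2 cells and 117, 116 and 119.7 TPM in Ctrl cells. It rose by 0.12 (95% interval 0.051 to 0.20, adjusted p = 0.0382) in M2 against Ctrl. The fitted log2 change was 0.11 (95% interval 0.037 to 0.18, adjusted p = 0.0630) in Q11 against Ctrl, with all cytokine libraries above all Ctrl libraries. The M2 call was lost without Q11 replicate 2, M2 replicate 2 or 3 or any 1 Ctrl library (adjusted p = 0.0646 to 0.105), and with shared reads separated (0.0650), and 6 of 19 alternatives called the gene.

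The 4 spindle checkpoint genes gave 0 calls in limma and in limma-voom in M2 against Ctrl, with 2 of 4 at an unadjusted p under 0.05 (26.1% of all genes). Mad2l1, a checkpoint protein that binds Cdc20, had 55.5, 52.999 and 53.7 TPM in Q11 cells, 47.3, 52.9 and 49.02 TPM in M2 cells and 54.6, 55.6 and 51.8 TPM in Ctrl cells. All Q11 libraries lay above all M2 libraries, and the Ctrl libraries overlapped both, but with shared reads separated Q11 replicate 2 had 52.8 TPM and the Q11 and M2 libraries overlapped. Its log2 change was -0.12 (95% interval -0.22 to -0.0089, adjusted p = 0.159) in M2 against Ctrl and 0.12 (95% interval 0.012 to 0.23, adjusted p = 0.395) in Q11 against M2, and without M2 replicate 2 the M2 change passed (0.0479). Ttk, the kinase that starts checkpoint signalling, had -0.15 (adjusted p = 0.0813) in M2 against Ctrl and passed without Ctrl replicate 2 (0.0316). The checkpoint kinases Bub1 and Bub1b had -0.0031 (adjusted p = 0.9797) and 0.030 (adjusted p = 0.549). Kif11, the motor that pushes spindle poles apart, had 63.3, 66.2 and 65.99 TPM in Q11 cells, 59.3, 60.9 and 59.4 TPM in M2 cells and 65.4, 59.3 and 60.8 TPM in Ctrl cells. Its fitted change was 0.12 (95% interval 0.028 to 0.21, adjusted p = 0.363) in Q11 against M2. Its Q11 and M2 libraries did not overlap, while the Ctrl libraries overlapped both. Kif20a, a motor of cytokinesis, had 0.13 (adjusted p = 0.0610) in M2 against Ctrl and passed without M2 replicate 2 (0.0164) and with a filter of 5 TPM (0.0492). Of its exon bases, 29.3% lie over Cdc23 on the opposite strand.

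Mki67, which coats mitotic chromosomes and marks dividing cells, was the most abundant mitotic gene. It had 329, 325 and 325 TPM in Q11 cells, 341, 332 and 320.3 TPM in M2 cells and 348, 331 and 341 TPM in Ctrl cells, with all Q11 libraries below all Ctrl libraries and the M2 libraries overlapping both. Its log2 change was -0.059 (95% interval -0.13 to 0.0075, adjusted p = 0.267) in Q11 against Ctrl, -0.040 (95% interval -0.11 to 0.027, adjusted p = 0.445) in M2 against Ctrl and -0.019 (95% interval -0.086 to 0.047, adjusted p = 0.828) in Q11 against M2. The other mitotic genes were Tpx2 (223 TPM), which activates Aurka at the spindle, Top2a (231), which untangles DNA, the mitotic kinase Plk1 (195), the ubiquitin-conjugating enzyme Ube2c (191), the passenger protein Birc5 (74.96), and the kinetochore proteins Cenpe (79.3) and Cenpf (26.3). In M2 against Ctrl, Plk1 and Ube2c, an APC/C partner, had 0.10 (adjusted p = 0.113) and 0.082 (adjusted p = 0.112), while Top2a, Cenpe, Cenpf and Birc5 had -0.064, -0.066, -0.066 and -0.061. In limma-voom the Q11 group added Aurka and E2f1 to the members past the threshold against Ctrl. The median log2 change of the 17 mitotic genes was -0.0031 in M2 against Ctrl, with 8 changes above 0 and 9 below. At an unadjusted p under 0.05 there were 8 of the 17, in either direction, against 26.1% of all genes and 34.9% of those averaging 10 TPM or more. The M2 libraries lay above the Ctrl libraries for 6 genes and below them for 2. Those groups did not overlap for 28.4% of all genes and 36.0% of those averaging 10 TPM or more.

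**Figure D3:**
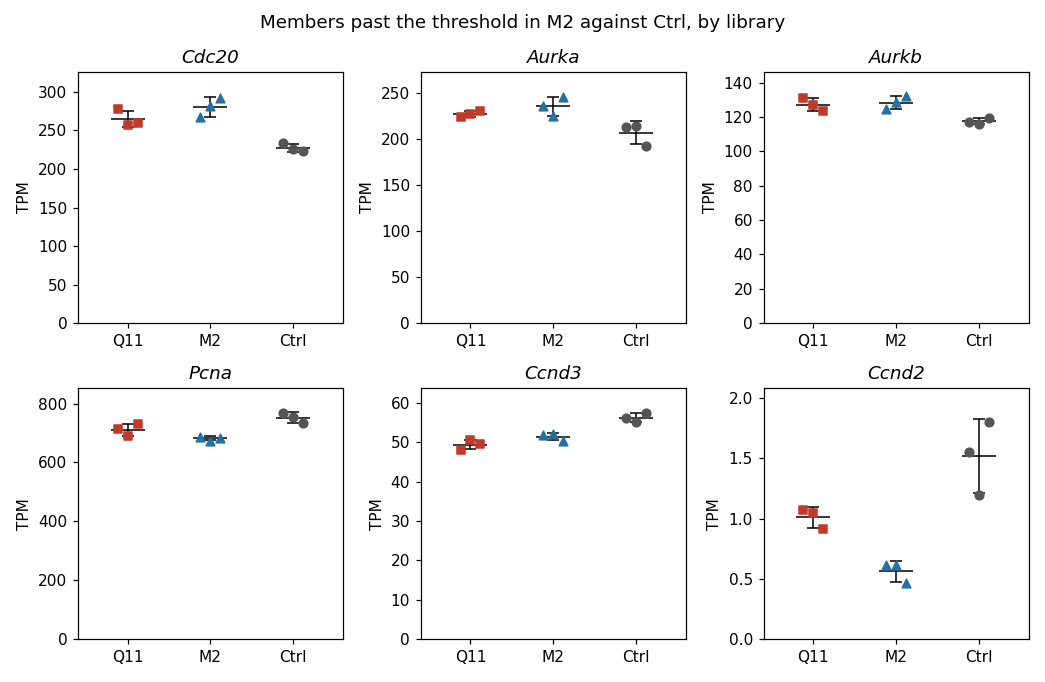
TPM in each library for the 6 genes past an adjusted p of 0.05 in M2 against Ctrl, with each axis from 0, points for libraries (Q11 squares, M2 triangles, Ctrl circles) and lines for the mean ± SD (n = 3 per group). Cdc20, Aurka and Aurkb sit higher in both cytokine groups than in Ctrl cells, Pcna and Ccnd3 sit lower, and Ccnd2 reaches at most 1.81 TPM in every library.

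Mitotic and replication genes were set against each other within each library. The 17 mitotic genes summed to 2426, 2408 and 2407 TPM in Q11 cells, 2409, 2415 and 2444 TPM in M2 cells and 2377, 2319 and 2303 TPM in Ctrl cells. The 16 replication genes summed to 2821, 2796 and 2809.8 TPM in Q11 cells, 2773, 2780.01 and 2849.8 TPM in M2 cells and 2853, 2854 and 2783 TPM in Ctrl cells. The ratio of mitotic to replication sums was 0.8601, 0.861 and 0.857 in Q11 cells, 0.869, 0.869 and 0.858 in M2 cells and 0.833, 0.812 and 0.828 in Ctrl cells, with all cytokine libraries above all Ctrl libraries. With shared reads separated Q11 replicate 2 had a ratio of 0.866. The mitotic sum without Cdc20 and Aurka was 1918 to 1926 TPM in Q11 cells, 1906 to 1909.7 TPM in M2 cells and 1879 to 1931 TPM in Ctrl cells, where the Ctrl range covers both others. The replication sum without Pcna was 2079 to 2108 TPM in Q11 cells, 2086 to 2166 TPM in M2 cells and 2049 to 2099 TPM in Ctrl cells. The genes left out, Cdc20, Aurka and Pcna, passed in M2 against Ctrl in these same libraries, so the reduced sums are not an independent check. Aurkb, which also passed, was kept. All these sums are descriptions, and the difference between classes was not tested.

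**Figure D4:**
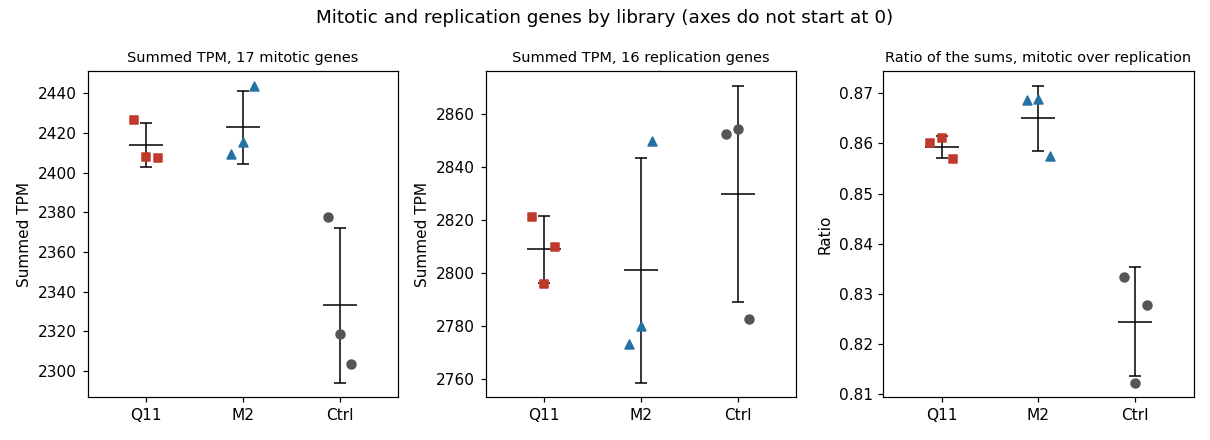
Summed TPM of the 17 mitotic genes (left) and the 16 replication genes (middle) and the ratio of these sums (right), in each library, with lines for the mean ± SD (n = 3 per group) and axes that do not start at 0. The ratio lies between 0.857 and 0.869 in the 6 cytokine libraries and between 0.812 and 0.833 in the 3 Ctrl libraries, while the replication sums overlap.

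Of the 13 cyclins, CDKs and CDC25 genes, Ccnd3 fell in both cytokine groups and Ccnd2 fell in M2 cells. Ccnd3 (ENSMUSG00000034165, chromosome 17, 47505051 to 47599691 on the plus strand), a D-type cyclin that activates Cdk4, had 48.02, 50.5 and 49.6 TPM in Q11 cells, 51.9, 52.03 and 50.3 TPM in M2 cells and 55.99, 55.1 and 57.4 TPM in Ctrl cells. All cytokine libraries lay below all Ctrl libraries. Its log2 change was -0.18 (95% interval -0.26 to -0.11, adjusted p = 0.00933) in Q11 against Ctrl, a fall that held in all 19 alternatives with adjusted p up to 0.0383, and -0.13 (95% interval -0.20 to -0.050, adjusted p = 0.0398) in M2 against Ctrl. The M2 call was lost without Q11 replicate 2 or 3 or any 1 M2 or Ctrl library (adjusted p = 0.0573 to 0.1199), and with shared reads separated (0.0868), and 7 of 19 alternatives called the gene. Of the Ccnd3 exon bases, 4.11% lie over Bysl on the opposite strand, which averaged 79.1 TPM. Ccnd1, the most abundant D-type cyclin, had 244, 251 and 248 TPM in Q11 cells, 251, 251 and 231 TPM in M2 cells and 265, 257 and 253 TPM in Ctrl cells. The log2 change was -0.081 (95% interval -0.16 to 0.00058, adjusted p = 0.195) in M2 against Ctrl and -0.062 (95% interval -0.14 to 0.020, adjusted p = 0.346) in Q11 against Ctrl. Of its exon bases, 23.4% lie over LTO1 on the opposite strand. Ccnd2 (ENSMUSG00000000184, chromosome 6, 127125162 to 127152193 on the minus strand) was scarce, at 1.07, 1.05 and 0.915 TPM in Q11 cells, 0.613, 0.613 and 0.467 TPM in M2 cells and 1.56, 1.197 and 1.81 TPM in Ctrl cells. These values rested on 49, 94 and 43 reads in Q11 cells, 29, 27 and 21 reads in M2 cells and 71, 57 and 83 reads in Ctrl cells, against at least 303 reads for every other gene of the 50 in every library. Ccnd2 fell in M2 against Ctrl, by a log2 change of -0.68 (95% interval -1.11 to -0.25, adjusted p = 0.0486). The call was lost without any 1 library (adjusted p = 0.0600 to 0.151) and with shared reads separated (0.0692), and 5 of 18 alternatives called the gene. The added 1 TPM shrinks the change of so low a gene, and limma-voom on recovered reads gave -1.40 (95% interval -1.92 to -0.88, adjusted p = 3.31e-04). Summed D-type cyclins were 293, 302 and 298 TPM in Q11 cells, 304, 303 and 282 TPM in M2 cells and 323, 314 and 312 TPM in Ctrl cells.

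Ccne2, a cyclin of S-phase entry, had 23.3, 21.01 and 22.8 TPM in Q11 cells, 17.2, 22.2 and 18.6 TPM in M2 cells and 23.9, 21.3 and 22.6 TPM in Ctrl cells. The M2 libraries overlapped both other groups through replicate 2 alone. Its log2 change was -0.22 (95% interval -0.42 to -0.016, adjusted p = 0.161) in M2 against Ctrl and 0.21 (95% interval 0.0029 to 0.41, adjusted p = 0.4297) in Q11 against M2, and without M2 replicate 2 the M2 change passed (0.0258). Of the Ccne2 exon bases, 17.4% lie over Ints8 on the opposite strand, which averaged 19.9 TPM. Ccne1, the paralogue of Ccne2, had 0.14 (adjusted p = 0.108) in Q11 against Ctrl and passed without M2 replicate 3 (0.0201). Ccnb2, a mitotic cyclin, had 175, 165 and 170.3 TPM in Q11 cells, 172, 178 and 189 TPM in M2 cells and 175, 166 and 166 TPM in Ctrl cells. On the log2 scale the change was 0.090 (95% interval -0.00074 to 0.18, adjusted p = 0.195) in M2 against Ctrl. Cdc25c, a phosphatase that activates Cdk1, had 13.3, 12.04 and 12.5 TPM in Q11 cells, 13.9, 14.5 and 12.97 TPM in M2 cells and 15.8, 14.9 and 13.3 TPM in Ctrl cells. Its change on that scale was -0.20 (95% interval -0.37 to -0.034, adjusted p = 0.132) in Q11 against Ctrl. The remaining genes were Ccna2 (139 TPM) and Ccnb1 (114), cyclins of S phase and mitosis, the kinases Cdk4 (173), Cdk1 (84.8) and Cdk2 (43.04), and the phosphatase Cdc25b (80.3). Cdk1, the mitotic kinase, had 95% intervals of -0.073 to 0.044 in M2 against Ctrl and -0.066 to 0.051 in Q11 against Ctrl. Cdk4 had 0.11 (95% interval 0.011 to 0.20, adjusted p = 0.158) in Q11 against Ctrl, with 19.7% of its exon bases over the opposite-strand gene Tspan31.

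The CDK inhibitors showed no call in limma or limma-voom in any comparison, nor any at an unadjusted p under 0.05 in limma. Cdkn1a, the p53 target p21, had 154, 146 and 143 TPM in Q11 cells, 167, 149 and 154 TPM in M2 cells and 147, 139 and 155 TPM in Ctrl cells. The fitted log2 change was 0.092 (95% interval -0.029 to 0.21, adjusted p = 0.323) in M2 against Ctrl and 0.010 (95% interval -0.11 to 0.13, adjusted p = 0.941) in Q11 against Ctrl. Cdkn1b, p27, had 36.8, 32.01 and 33.6 TPM in Q11 cells, 31.4, 35.98 and 26.2 TPM in M2 cells and 33.4, 33.002 and 34.6 TPM in Ctrl cells. Its fitted change was -0.12 (95% interval -0.35 to 0.11, adjusted p = 0.506) in M2 against Ctrl and 0.016 (95% interval -0.21 to 0.24, adjusted p = 0.949) in Q11 against Ctrl. The M2 libraries of Cdkn1b spread more than those of the other groups, and differences within these intervals were not detectable here. E2f1, the activating E2F factor, had 122, 134 and 135 TPM in Q11 cells, 129, 134 and 142 TPM in M2 cells and 141, 146 and 148 TPM in Ctrl cells. All Q11 libraries lay below all Ctrl libraries, and the M2 libraries overlapped both. Its log2 change was -0.15 (95% interval -0.26 to -0.044, adjusted p = 0.0802) in Q11 against Ctrl, and it passed in limma-voom on recovered reads (0.0243), there with shared reads separated (0.0319) and with a replicate block (0.0321). Foxm1, a factor of mitotic genes, had 87.6, 82.2 and 78.4 TPM in Q11 cells, 86.3, 88.8 and 86.4 TPM in M2 cells and 85.6, 90.5 and 90.5 TPM in Ctrl cells. The log2 change was -0.10 (95% interval -0.20 to -0.0052, adjusted p = 0.186) in Q11 against Ctrl.

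Between the cytokine groups, adding Q11 gave 0 calls among the 50 genes in limma and in all 19 alternatives, limma-voom included, and in limma 0% of all genes were called (2 genes in limma-voom). At an unadjusted p under 0.05 there were 4 of 50 genes (Cdc45, Kif11, Mad2l1 and Ccne2, named after their values were seen), against 11.4% of all genes, and the smallest adjusted p was 0.351. The groups did not overlap for 8 of 50 genes, against 17.6% of all genes, and for 5 of 50 with shared reads separated, against 12.5%. For 40 of 50 genes the 95% interval of the Q11 minus M2 difference lay within 0.2 on the log2 scale either way, against 35.6% of all genes and 57.8% of those averaging 10 TPM or more. The same count was 35 of 50 genes in M2 against Ctrl and 39 of 50 in Q11 against Ctrl. The widest interval belonged to Ccnd2, at 0.36 (95% interval -0.068 to 0.80, adjusted p = 0.4999) in Q11 against M2, and differences within that interval were not detectable at its depth. A p that misses the threshold does not show that the groups are alike, and the intervals give the sizes these libraries leave possible.

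Other genes of the cycle were read from lists by role, against the same background of 12.6% in M2 against Ctrl and 10.7% in Q11 against Ctrl. Among 31 tested regulators, 4 rose and 2 fell in M2 against Ctrl, and 5 rose and 3 fell in Q11 against Ctrl. With shared reads separated, and 30 of them tested, 3 rose and 2 fell in M2 and 5 rose and 2 fell in Q11 against Ctrl, without E2f4 and E2f2. In that form 9.22% of all genes were called in M2 and 7.89% in Q11 against Ctrl. Mybl2, the B-Myb factor that works with Foxm1 on mitotic genes, had 135, 135 and 132 TPM in Q11 cells, 149, 137 and 143 TPM in M2 cells and 111, 116 and 110.2 TPM in Ctrl cells. It rose by 0.35 (95% interval 0.26 to 0.43, adjusted p = 5.07e-04) in M2 against Ctrl and by 0.25 (95% interval 0.17 to 0.34, adjusted p = 0.00315) in Q11 against Ctrl. Myc, a growth factor-responsive transcription factor, had 21.5, 22.8 and 23.2 TPM in Q11 cells, 21.96, 22.95 and 22.02 TPM in M2 cells and 14.1, 13.6 and 16.96 TPM in Ctrl cells. It rose by 0.56 (95% interval 0.39 to 0.73, adjusted p = 0.00198) in M2 against Ctrl and by 0.57 (95% interval 0.40 to 0.74, adjusted p = 0.00195) in Q11 against Ctrl, and both genes passed in all 19 alternatives in both comparisons. Ccnf, an F-box cyclin of ubiquitin ligases, had 0.21 (adjusted p = 0.00781) in M2 and 0.17 (adjusted p = 0.0206) in Q11 against Ctrl. The Q11 call was lost without Ctrl replicate 1 or 2 or any 1 Q11 library (adjusted p = 0.0645 to 0.0732), and 13 of 19 alternatives called Ccnf. The pocket proteins Rb1, the retinoblastoma protein, and Rbl1, p107, fell in M2 cells, with -0.33 (adjusted p = 0.00619) and -0.21 (adjusted p = 0.00715), in all 19 alternatives. Rb1 also fell in Q11 against Ctrl, with -0.23 (adjusted p = 0.0306). It no longer passed without Ctrl replicate 2 or 3 or any 1 Q11 library (adjusted p = 0.0790 to 0.0969), and 12 of 19 alternatives called Rb1. E2f4, a repressive E2F, rose in M2 cells with 0.16 (adjusted p = 0.0409). That call did not hold without Q11 replicate 2 or 3, M2 replicate 1 or 3 or any 1 Ctrl library (adjusted p = 0.0541 to 0.128), and 6 of 19 alternatives called E2f4. In Q11 against Ctrl, Skp2, which marks p27 for degradation, rose with 0.28 (adjusted p = 0.0109). The call did not hold without Q11 replicate 3 (adjusted p = 0.0527), and 18 of 19 alternatives called Skp2. There E2f2, an activating E2F, fell with -0.19 (adjusted p = 0.0410). That call was lost without any 1 Q11 or Ctrl library (adjusted p = 0.0592 to 0.142), and 7 of 19 alternatives called E2f2. The CDK inhibitor Cdkn2d fell with -0.24 (adjusted p = 0.0214). The call was lost without Q11 replicate 2 or 3 or Ctrl replicate 2 or 3 (adjusted p = 0.0592 to 0.0848), and 13 of 19 alternatives called Cdkn2d. Tfdp1, the partner of E2F factors, also rose there, with 0.13 (adjusted p = 0.0118). It no longer passed without Q11 replicate 2 or 3 (adjusted p = 0.0547 to 0.0552), and 15 of 19 alternatives called Tfdp1, which was named after its value was seen. Cdkn2a and Cdkn2b were not analysed here.

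Of 44 other replication genes, 3 rose and 0 fell in M2 against Ctrl, and 3 rose and 1 fell in Q11 against Ctrl. With shared reads separated only Pold2 passed in M2 and only Dut and Pold1 in Q11 against Ctrl, all higher. In that form 9.22% of all genes were called in M2 and 7.89% in Q11 against Ctrl. Pold2 and Pold1, subunits of the lagging-strand polymerase delta, rose in M2 cells with 0.25 (adjusted p = 0.00675) and 0.16 (adjusted p = 0.0207), and Pold1 rose in Q11 cells with 0.14 (adjusted p = 0.0368). Pold2 passed in all 19 alternatives, while Pold1 was lost in M2 cells without M2 replicate 1 or any 1 Ctrl library (adjusted p = 0.0512 to 0.0623), and 13 of 19 alternatives called Pold1. The Q11 call was lost without any 1 Q11 or Ctrl library (adjusted p = 0.0583 to 0.127), and 9 of 19 alternatives called Pold1. Rfc5, a subunit of the loader of Pcna, rose in both, with 0.14 (adjusted p = 0.0426) and 0.15 (adjusted p = 0.0388). The M2 call was lost without M2 replicate 2 or 3 or any 1 Q11 or Ctrl library (adjusted p = 0.0606 to 0.126), and 4 of 19 alternatives called Rfc5. The Q11 call was lost without M2 replicate 2 or any 1 Q11 or Ctrl library (adjusted p = 0.0520 to 0.121), and 5 of 19 alternatives called Rfc5. Dut, which removes dUTP, rose in Q11 cells with 0.23 (adjusted p = 0.0324). That call did not hold without any 1 Q11 or Ctrl library (adjusted p = 0.0574 to 0.0961), and 9 of 19 alternatives called Dut. Tk1, thymidine kinase, fell there with -0.15 (adjusted p = 0.0445). The call did not hold without M2 replicate 3 or any 1 Q11 or Ctrl library (adjusted p = 0.0507 to 0.133), and 7 of 19 alternatives called Tk1. Of 42 other mitotic genes, 1 rose and 2 fell in M2 against Ctrl, and 2 rose and 0 fell in Q11 against Ctrl. With shared reads separated the M2 calls of Gtse1, Pbk and Smc4 were lost (adjusted p = 0.0849, 0.0730 and 0.0682). That left 0 of 42 in M2 against Ctrl, against 9.22% of all genes. Both Q11 calls held, against 7.89% of all genes. Gtse1, a microtubule-binding protein, rose in both, with 0.13 (adjusted p = 0.0271) and 0.16 (adjusted p = 0.0118). The M2 call was lost without Q11 replicate 2, M2 replicate 1 or 3 or any 1 Ctrl library (adjusted p = 0.0506 to 0.0832), and 8 of 19 alternatives called Gtse1. The Q11 call was lost without Q11 replicate 2 (adjusted p = 0.0557), and 18 of 19 alternatives called Gtse1. Pbk, a mitotic kinase, and Smc4, a condensin subunit, fell in M2 cells with -0.19 (adjusted p = 0.0491) and -0.12 (adjusted p = 0.0461). That call was lost for Pbk without Q11 replicate 2 or 3, Ctrl replicate 1 or 2 or any 1 M2 library (adjusted p = 0.0579 to 0.136) and for Smc4 without any 1 library (adjusted p = 0.0564 to 0.1404), and held in 7 of 19 and 5 of 19 alternatives. Knl1, a kinetochore scaffold, rose in Q11 cells with 0.17 (adjusted p = 0.0301). The call was lost without any 1 Q11 or Ctrl library (adjusted p = 0.0574 to 0.1196), and 11 of 19 alternatives called Knl1. For the lists in which 0 fell, an unadjusted p under 0.05 was met, in either direction, by 12 of 44 replication genes in M2 and 10 of 42 mitotic genes in Q11 against Ctrl. The shares over all genes were 26.1% and 23.9%.

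Of 16 p53 targets and partners read beside Cdkn1a, 4 rose and 2 fell in M2 against Ctrl, and 5 rose and 1 fell in Q11 against Ctrl. Of all genes, 12.6% and 10.7% were called in these comparisons. With shared reads separated 3 rose and 2 fell in M2, without Phlda3, and 2 rose and 1 fell in Q11 against Ctrl, without Aen, Sesn1 and Tigar. In that form 9.22% of all genes were called in M2 and 7.89% in Q11 against Ctrl. Plk2, a Polo-like kinase, rose with 0.22 (adjusted p = 0.00340) in M2 and 0.25 (adjusted p = 0.00197) in Q11 against Ctrl, and Bax, a pore-forming cell death protein, rose with 0.21 (adjusted p = 0.0121) and 0.21 (adjusted p = 0.0125). Btg2, an antiproliferative gene, fell with -0.51 (adjusted p = 0.00385) in M2 and -0.54 (adjusted p = 0.00298) in Q11 against Ctrl, and Mdm2, which degrades p53, fell in M2 cells with -0.20 (adjusted p = 0.00864). Each of these calls held in all 19 alternatives, as did the rise of the nuclease Aen in M2 cells, with 0.30 (adjusted p = 0.00986). Aen rose in Q11 cells with 0.22 (adjusted p = 0.0425). It no longer passed without M2 replicate 1 or 2, Ctrl replicate 1 or 3 or any 1 Q11 library (adjusted p = 0.0511 to 0.139), and 7 of 19 alternatives called Aen. Phlda3 rose in M2 cells with 0.29 (adjusted p = 0.0324). That call did not hold without Q11 replicate 2, Ctrl replicate 3 or any 1 M2 library (adjusted p = 0.0504 to 0.0890), and 11 of 19 alternatives called Phlda3. The stress gene Sesn1 rose in Q11 cells with 0.27 (adjusted p = 0.0438). The call did not hold without M2 replicate 2, Ctrl replicate 1 or 2 or any 1 Q11 library (adjusted p = 0.0585 to 0.152), and 8 of 19 alternatives called Sesn1. Tigar, a regulator of sugar use named after its value was seen, rose in Q11 cells with 0.21 (adjusted p = 0.0291). That call was lost without Q11 replicate 1 or 3 or any 1 Ctrl library (adjusted p = 0.0523 to 0.0935), and 9 of 19 alternatives called Tigar. The p53 targets that passed thus moved in both directions. In Q11 against M2, 0 genes of these 4 lists passed in limma. An unadjusted p under 0.05 was met there by 5 of 44 replication genes, 6 of 42 mitotic genes, 4 of 31 regulators and 2 of 16 p53 targets, against 11.4% of all genes.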

How the data were processed

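J774A.1 RNA was sequenced in 9 libraries, 3 per group, grouped by the sample titles. The authors deposited TPM of 26157 genes as a single table. The submitters' processing notes name HISAT2 2.0.5, StringTie 1.3.3b and GRCm38. Counting settings and strand use are not stated in the sources used here. The poly-A libraries were NEBNext Ultra libraries, per the labels' protocols.

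Reads were recovered as whole multiples of TPM times exon length (GENCODE M21, 25594 genes). With a tolerance of 0.1 read, 98.8% to 99.2% of values under 20 reads were whole. Depth limits the precision of low genes, and a count of 0 could stand for up to 3 reads, counting error only.

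The 14207 genes that reached 1 TPM in 3 or more libraries were tested. Group means were fitted to log2(TPM + 1), a scale that understates changes of low genes, with limma 3.58.1 in R 4.3.3 (eBayes with trend, 6 residual degrees of freedom and a median of 2.85 prior degrees of freedom), two-sided, with Benjamini-Hochberg adjustment over all genes and a threshold of 0.05. Sums, ratios and promoter matches are descriptions. Python 3.11.15, pandas 2.3.3, numpy 2.4.6 and matplotlib 3.10.9 were used. The fit was run on simulated independent libraries, which held neither genes with few reads nor the reads shared by Q11 replicates 2 and 3. Promoters are RefSeq's, GRCm38.p6.

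Full values are given for genes called in at least 1 comparison and, per class, for the 2 with the highest mean and the 2 with the largest change in each comparison. Of the other pathway genes, at most 4 called per list and direction are named by size of change. The members and lists were chosen with earlier results of these data known. The 19 alternatives were a filter of 5 TPM and none, a pseudocount of 0.1 TPM, quantile normalization, no trend, a replicate block, limma-voom on recovered reads with and without shared reads separated, shared reads separated, Q11 replicates 2 and 3 averaged, and each library left out.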

Additional observations from a re-analysis of the deposited data

How the results depend on the processing

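The 0 calls among the 50 genes in Q11 against M2 held in all 19 alternatives. In place of the 6 genes called in M2 against Ctrl, 2 were called with Q11 replicates 2 and 3 averaged, 2 with no mean-variance trend, 2 with shared reads separated, and 1 to 6 with a library left out, where the 6 without M2 replicate 2 held 3 of those 6. The 2 in Q11 against Ctrl became 4 in limma-voom on recovered reads. Same-numbered libraries did not deviate together (correlations of -0.031 to 0.036), which cannot show whether they were prepared together. A replicate block gave 2 calls in M2 against Ctrl, 0 in Q11 against M2 and 3 in Q11 against Ctrl. No value changed sign among called genes. Except with shared reads separated, the shares of all genes called in M2 or Q11 against Ctrl are not given for these settings. Their counts therefore cannot be read as particular to the 50 genes. The causes were not tested.

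Medians of the replication, mitotic and cyclin classes stayed within 0.06 of 0 on the log2 scale. In Q11 against M2 the mitotic median was -0.0032 as reported, 0.015 with shared reads separated and 0.011 in limma-voom so separated. In Q11 against Ctrl the replication median was 0.037 and 0.029 under these settings. The mitotic median of M2 against Ctrl was -0.028 with quantile normalization. With a library left out, mitotic medians ranged from -0.028 to 0.020 in M2 against Ctrl and from -0.0046 to 0.0081 in Q11 against M2. Replication medians ranged from 0.0017 to 0.056 in M2 against Ctrl. Cyclin, CDK and CDC25 medians ranged from -0.040 to -0.0029 in M2 against Ctrl, -0.0101 to 0.024 in Q11 against M2 and -0.0084 to 0.011 in Q11 against Ctrl. Depth limits Ccnd2, with 21 to 94 reads per library.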
